A study of Mus musculus with 6 samples.

Results

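The expression of 8 genes that mark monocytes, the macrophages that arise from them and lipid-associated macrophages was followed in bulk RNA of mouse liver. They were chosen by symbol, with earlier results of these data known, as Ly6c2, Lyz2, Plac8, Lgals3, Trem2, Gpnmb, Cd68 and Cd9, and the choice applied no threshold on measured values. All 8 were among the 20140 genes listed and all 8 were among the 16370 genes that were abundant enough to be tested. The name of the group says what these genes are known for. It does not say which cells of the liver carried the RNA.

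Monocytes are made in the bone marrow, travel in the blood and can become macrophages once they enter a tissue. The liver also holds resident macrophages, the Kupffer cells, which line its sinusoids and carry markers such as CLEC4F and TIMD4. Lipid-associated macrophages are a state found in fatty or injured tissue and in tumors, in which the lipid-sensing receptor TREM2 is present together with proteins of phagocytosis and lysosomes.

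The study asked how the liver changes before and during metastasis of colorectal cancer, and its bulk libraries held 3 groups with 2 livers each, all taken on day 21. Sham mice were operated on and received no tumor cells. CT26 cells were grown in the cecum for the premetastatic niche (PMN) group. The metastasis group received the same line through the spleen. CT26 is a colon carcinoma cell line from BALB/c mice. The labels read only control or sham, intra-C and intra-S, and these names were read here from the study's description of its CT26 models. By that description all mice were young adult BALB/c animals, and no group carried an engineered allele. The tumor groups differed from each other in the site of injection, in the number of cells injected, which by the study's methods was lower for the spleen, and in the presence of metastasis together, so that these cannot be told apart. The livers of a group are described as biological replicates, and the labels name no batch.

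Total counts ranged from 32838321 to 43368309 per liver, so that 3 counts, taken as the limit that a count of 0 allows, stood for 0.0679 to 0.0928 CPM (counts scaled to library size after TMM normalization). These limits cover counting error only. The tissue label was checked against 8 hepatocyte markers, of which Alb, the serum albumin gene, was the most abundant, and whose summed level was above that of every other marker list in each liver. The livers within a group differed beyond sampling noise. Among 12680 genes with a mean of at least 1 CPM, the median ratio of the higher to the lower liver was 1.13 in the sham group, 1.18 in the PMN group and 1.41 in the metastasis group. The share of these genes that differed more than 2-fold between the livers of a group was 3.75%, 6.26% and 21.6%, respectively. The metastasis livers were therefore the least alike of the 3 pairs by this measure.

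On the mouse genome (build mm10, RefSeq GRCm38.p6), the 8 genes lie on 7 chromosomes. Ly6c2, which encodes the surface protein LY6C2 detected on classical monocytes, lies on the minus strand at chr15:75108161-75112066. Lyz2 encodes lysozyme M, an antibacterial enzyme of myeloid cells (chr10:117277541-117282272, minus). Plac8 encodes a small cysteine-rich protein found in monocytes and other leukocytes (chr5:100551589-100572253, minus). Cd68, the gene of a lysosomal glycoprotein of phagocytes, is at chr11:69664213-69666170 (minus). Trem2 is at chr17:48346401-48352276 (plus). Gpnmb encodes a transmembrane glycoprotein of lysosome-rich cells (chr6:49036518-49058182, plus). Lgals3 encodes galectin-3, a lectin that binds galactose-containing sugars (chr14:47373860-47386167, plus). Cd9 encodes a tetraspanin that is also present on platelets, endothelium and epithelium (chr6:125460266-125494760, minus).

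The promoters of the 8 genes were searched for short sequence motifs as a description. The windows ran from 250 bases before to 50 bases after each RefSeq start. A set of 5 motifs was looked for on both strands, namely the E-box sequences CACGTG and CATGTG, the PU.1-type sequence GAGGAAGT, its core GAGGAA, which every GAGGAAGT contains, and the C/EBP-type TTGCGCAA. PU.1 and C/EBP factors act in myeloid cells, and E-boxes of these types are bound by factors that control lysosomal genes. Of all 32851 promoter windows of the same length, 7.15% held CACGTG, 14.2% CATGTG, 3.20% GAGGAAGT, 28.3% GAGGAA and 0.183% TTGCGCAA. The 150 bases before the start are shown, 5′ to 3′ on the strand of the gene, for the 4 genes with a match in that stretch, with each match in capitals. For Ly6c2 and Plac8, which have 2 listed starts each, the upstream one is shown. TTCCTC is GAGGAA and CACATG is CATGTG on the other strand.
Ly6c2, chr15:75111972-75112121, minus strand: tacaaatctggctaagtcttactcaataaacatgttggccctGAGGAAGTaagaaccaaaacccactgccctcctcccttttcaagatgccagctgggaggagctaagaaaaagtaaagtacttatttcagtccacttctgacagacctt
Plac8, chr5:100572206-100572355, minus strand: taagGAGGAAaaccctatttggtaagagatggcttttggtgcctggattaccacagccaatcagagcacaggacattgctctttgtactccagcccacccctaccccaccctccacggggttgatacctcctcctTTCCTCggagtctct
Trem2, chr17:48346251-48346400, plus strand: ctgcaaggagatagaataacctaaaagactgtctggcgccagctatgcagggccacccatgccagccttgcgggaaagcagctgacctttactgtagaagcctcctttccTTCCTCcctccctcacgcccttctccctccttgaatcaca
Cd9, chr6:125494761-125494910, minus strand: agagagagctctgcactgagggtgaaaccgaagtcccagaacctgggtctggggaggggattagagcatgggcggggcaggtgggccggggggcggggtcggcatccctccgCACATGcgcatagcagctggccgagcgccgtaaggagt
The Ly6c2 sequence held GAGGAAGT from base 108 to base 101 before the start. Plac8 held the core GAGGAA at 146 to 141 bases before the start and, on the other strand, at 15 to 10. Trem2 held it on the other strand at 40 to 35 bases, and Cd9 held CATGTG on the other strand at 38 to 33 bases. In Cd68, a GAGGAA lay farther out, at 225 to 220 bases. Past the start, Ly6c2 held a second GAGGAAGT from base 27 and Cd68 a GAGGAA on the other strand from base 30. None of the searched letters were in the windows of Lyz2, Lgals3 or Gpnmb, and no window of the 8 genes held CACGTG or TTGCGCAA. These matches are a description of the sequence and not of binding.

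Compared with sham livers, PMN livers had more RNA of Lyz2, Cd68, Lgals3 and Trem2, the lysozyme, lysosomal, galectin and lipid-receptor genes of the group, by 3.56- to 8.0-fold. These 4 of the 8 genes rose at an adjusted p under 0.05 in edgeR's quasi-likelihood test, against 4.92% of all genes tested. In metastasis livers 6 of the 8 rose against sham, the same 4 with Cd9 and Plac8, by 4.24- to 21.7-fold, against 6.78% of all genes tested. None of the 8 fell in either comparison, where 2.38% and 3.95% of all genes tested did. The median log2 fold change of the 8 was 2.36 in PMN and 2.86 in metastasis livers, where the medians of all genes tested were 0.01 and 0.04. In whole liver, a change in the number of cells of a type and a change in RNA per cell cannot be told apart. Both comparisons used the same sham livers. When either sham liver was left out, none of the 8 genes passed in either comparison (lowest adjusted p of 0.109 in PMN and 0.0698 in metastasis), and when either PMN liver was left out none passed in PMN (lowest adjusted p of 0.0554). The share of all genes tested that rose was 0% without either sham liver, and 0.352% and 0.323% in PMN without the first and the second PMN liver. Without either metastasis liver, 7 of the 8 passed in PMN, against 14.5% and 14.4% of all genes, and without either PMN liver, 3 of the 8 passed in metastasis, against 2.13% and 1.97%.

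**Figure D1:**
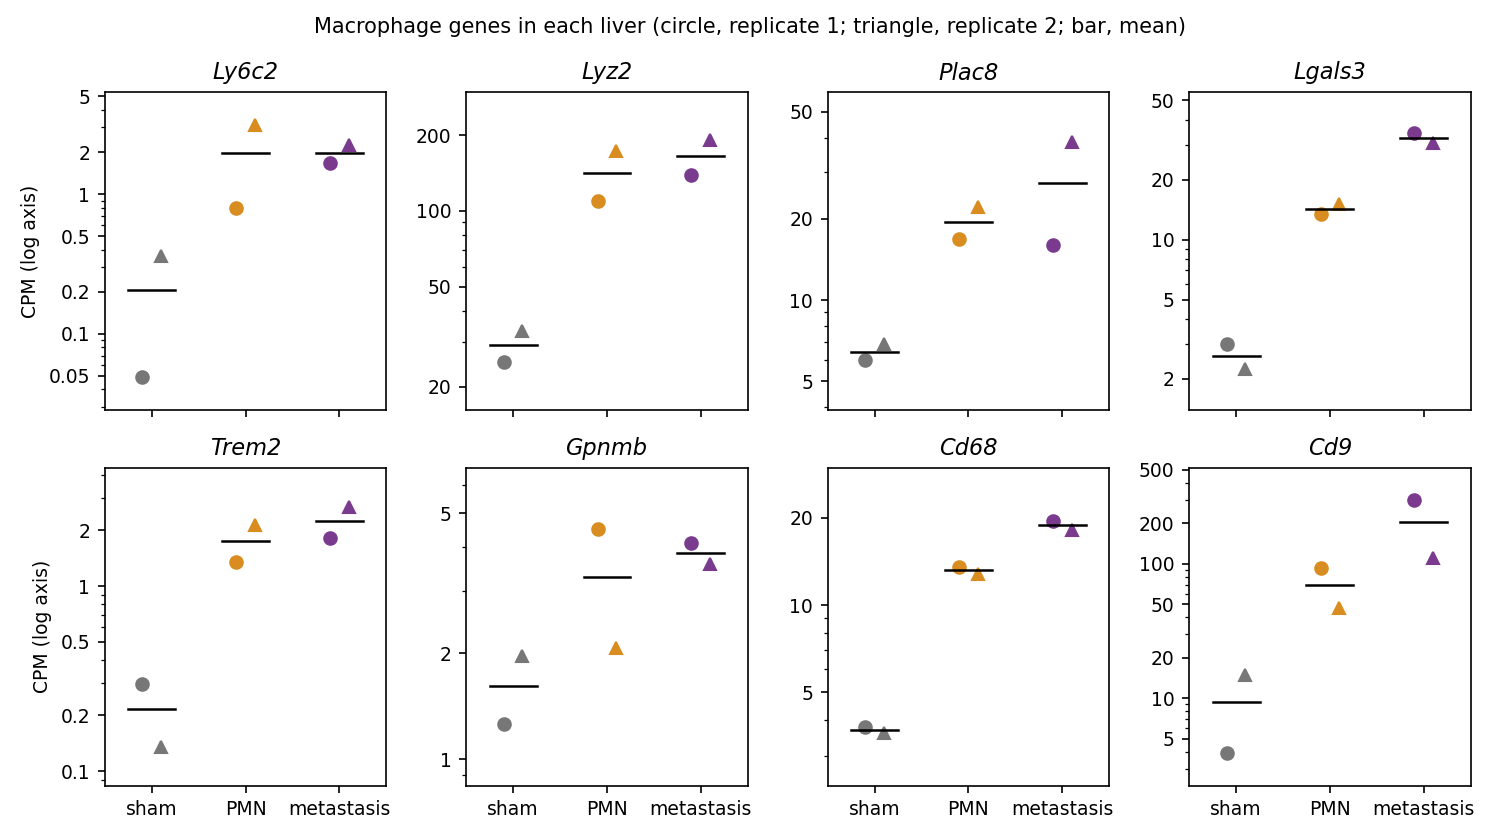
Normalized counts (CPM, log axis) of the 8 genes in each liver by group, with circles for replicate 1, triangles for replicate 2 and bars for the group mean. The sham livers lie below the livers of both tumor groups in every panel, and the closest approach is that of Gpnmb, where a sham liver at 1.97 lies next to a PMN liver at 2.07.

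Of the monocyte genes, Ly6c2 was the least abundant. Its counts were 2 and 16 in sham livers, 31 and 101 in PMN livers and 57 and 92 in metastasis livers, which corresponds to 0.0493 and 0.362 CPM, 0.789 and 3.12 CPM, and 1.66 and 2.26 CPM. Both sham livers were below all 4 tumor-bearing livers, and the first sham liver was under the limit of 3 counts. The log2 fold change was 3.21 ± 1.00 (SE, n = 2 livers per group) in PMN livers (adjusted p = 0.103) and 3.22 ± 1.00 in metastasis livers (adjusted p = 0.0888), so that neither difference passed the test. Without the first sham liver the values were 2.42 and 2.43, and without the second they were 5.21 and 5.22. The PMN value was 3.89 without the first PMN liver and 1.94 without the second. The 95% interval of the PMN difference ran from 0.81 to 5.61. The PMN livers differed from each other by 3.96-fold, and the metastasis livers by 1.36-fold.

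Ly6c2 has a near-identical neighbour, Ly6c1, which is found on endothelial cells as well as monocytes. The longest annotated transcripts of the pair were identical at 97.6% of 822 aligned bases, with no identical run over 188 bases. The authors counted uniquely aligned reads, so the split between the pair is uncertain. Ly6c1 was at 0.0739 and 0.226 CPM in sham, 1.50 and 2.94 in PMN, and 2.65 and 5.00 in metastasis livers. Ly6c1 rose in both comparisons, with log2 fold changes of 3.84 ± 0.71 (adjusted p = 0.0319) and 4.63 ± 0.72 (adjusted p = 0.0160). Ly6c2 held between 45.2% and 74.5% of the summed level of the pair by TPM, a scale that takes the length of a gene into account. The PMN livers overlapped with both other groups in this share, and both metastasis livers were below both sham livers. In sham livers the share rested on 2 and 16 counts of Ly6c2 and 3 and 10 of Ly6c1. The lower sham share was 54.9% and the higher metastasis share 53.4%, an order that such counts do not resolve.

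Lyz2 was the most abundant of the 8 in 5 of the 6 livers by TPM. It was at 25.1 and 33.3 CPM in sham livers, 109 and 172 in PMN livers and 139 and 191 in metastasis livers. The tumor-bearing livers were all above the sham livers, and the ranges of the PMN and metastasis livers overlapped. Lyz2 rose 4.83-fold in PMN livers (log2 fold change 2.27 ± 0.32, adjusted p = 0.0169) and 5.66-fold in metastasis livers (2.5 ± 0.32, adjusted p = 0.0110). Its paralog Lyz1, the lysozyme of Paneth cells, had 0 to 6 counts per liver and was not tested. The longest transcripts of the lysozyme pair were identical at 96.0% of 1262 aligned bases.

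Plac8 was at 6.01 and 6.86 CPM in sham, 16.9 and 22.2 in PMN, and 16 and 38.5 in metastasis livers. The second metastasis liver was 2.40-fold above the first, which was itself below both PMN livers. Plac8 rose 4.24-fold in metastasis livers (log2 fold change 2.08 ± 0.43, adjusted p = 0.0325). This call was lost without TMM normalization (adjusted p = 0.0529), on log2(TPM + 1) and log2(TPM + 0.1) with limma (0.0815 and 0.0702), with only the 2 groups fitted (0.0751) and without either PMN liver (0.0761). Without the second metastasis liver the log2 fold change was 1.32. The PMN difference of 3.03-fold (1.60 ± 0.42, adjusted p = 0.0714) did not pass the test. Over the alternative analyses the adjusted p ranged from 0.00157 to 0.352 in PMN and from 0.000146 to 0.217 in metastasis.

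Cd68 was the member whose livers were most alike within groups. It was at 3.79 and 3.62 CPM in sham livers, 13.6 and 12.8 in PMN livers and 19.5 and 18.2 in metastasis livers, and no pair of livers differed by more than 1.07-fold. The 3 groups did not overlap. Cd68 rose 3.56-fold in PMN livers (log2 fold change 1.83 ± 0.21, adjusted p = 0.00944) and 5.08-fold in metastasis livers (2.35 ± 0.21, adjusted p = 0.00578).

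Among the genes of lipid-associated macrophages, Trem2 was sparse. The receptor had 12 and 6 counts in sham livers, 53 and 69 in PMN livers and 62 and 109 in metastasis livers, or 0.296 and 0.136 CPM, 1.35 and 2.13 CPM, and 1.81 and 2.67 CPM. All 4 tumor-bearing livers were above the sham livers, and the PMN and metastasis ranges overlapped. Trem2 rose 8.0-fold in PMN livers (log2 fold change 3.00 ± 0.60, adjusted p = 0.0371, 95% interval 1.57 to 4.43) and 10.3-fold in metastasis livers (3.37 ± 0.60, adjusted p = 0.0231, 95% interval 1.93 to 4.81). Without the first sham liver the log2 fold changes were 3.65 and 4.02, and without the second they were 2.54 and 2.91. On log2(TPM + 1), where low genes change less by construction, they were 1.04 and 1.2, and the PMN call was lost there. The PMN call was also lost in edgeR with the replicate number as a block (adjusted p = 0.0586). The metastasis call was lost with only the 2 groups fitted (adjusted p = 0.0612) and without either PMN liver (0.0576 and 0.0605).

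Gpnmb, which often accompanies Trem2 in such macrophages, did not pass the test in either comparison. Its levels were 1.26 and 1.97 CPM in sham, 4.51 and 2.07 in PMN, and 4.11 and 3.58 in metastasis livers. The second PMN liver was close to the higher sham liver on this scale, and by TPM it was below it, at 1.11 against 1.16. The log2 fold change was 1.03 ± 0.47 in PMN livers (adjusted p = 0.218, 95% interval −0.10 to 2.16) and 1.25 ± 0.47 in metastasis livers (adjusted p = 0.136, 95% interval 0.12 to 2.38). The PMN value was 0.36 without the first PMN liver and 1.5 without the second.

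Lgals3 was at 2.98 and 2.24 CPM in sham, 13.4 and 15.1 in PMN, and 34.3 and 30.6 in metastasis livers. The 3 groups did not overlap, and the metastasis livers were above both PMN livers. Galectin-3 RNA rose 5.46-fold in PMN livers (log2 fold change 2.45 ± 0.24, adjusted p = 0.00702) and 12.4-fold in metastasis livers (3.64 ± 0.25, adjusted p = 0.00443).

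Cd9 spanned the widest range of the 8, from 158 counts in a sham liver to 10171 in a metastasis liver. It was at 3.89 and 14.8 CPM in sham, 93.2 and 46.5 in PMN, and 297 and 110 in metastasis livers. The groups did not overlap, although the livers within each group differed by 2.01- to 3.80-fold. Cd9 rose 21.7-fold in metastasis livers (log2 fold change 4.44 ± 0.83, adjusted p = 0.0260, 95% interval 2.45 to 6.43). Single livers moved this value, to 3.56 without the first metastasis liver, 3.78 without the first sham liver and 5.7 without the second sham liver. The call was lost with only the 2 groups fitted (adjusted p = 0.0660) and without either PMN liver (0.0614 and 0.0621). In PMN livers its difference of 7.46-fold (2.90 ± 0.77) did not pass (adjusted p = 0.0742), and it was 2.24 and 4.16 on the log2 scale without the first and the second sham liver. With only the 2 groups fitted the PMN difference of Cd9 passed (adjusted p = 0.0167), in a setting where 16.3% of all genes rose. Cd9 was the one member that shared exon bases with another annotated gene, Gm26728 on the opposite strand, over 218 of 2044 bases. Gm26728 had 161 counts over all 6 livers, and whether counting used strand is not given in the sources used here.

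**Figure D2:**
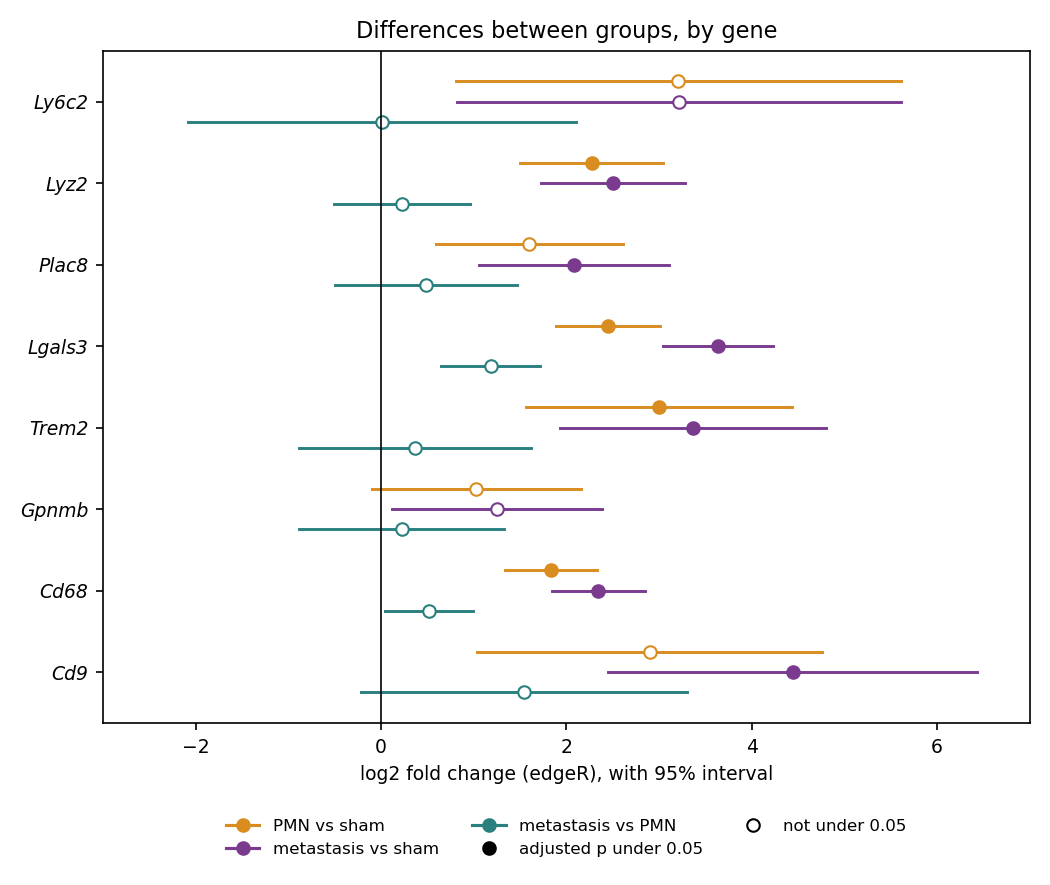
Log2 fold change (edgeR, horizontal axis) of each of the 8 genes for the 3 comparisons, with 95% intervals, where filled circles mark an adjusted p under 0.05. The metastasis difference of Cd9 (4.44) lies farthest to the right, and no circle of the metastasis to PMN comparison is filled.

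All 8 genes were higher in both PMN livers than in both sham livers by CPM, where 34.4% of all genes tested were, and all 8 were higher in both metastasis livers, where 30.4% were. At an unadjusted p under 0.05, 7 of the 8 were higher in PMN livers and 8 in metastasis livers, against 15.2% and 17.2% of all genes. With DESeq2 in place of edgeR, 7 of the 8, all but Gpnmb, rose in PMN livers and in metastasis livers, against 10.4% and 12.6% of all genes by that tool.

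Metastasis and PMN livers were compared directly to ask whether these genes differed between the tumor models. None of the 8 genes passed edgeR's test, and no gene of the 16370 did (0% in each direction). At an unadjusted p under 0.05, 2 of the 8 were higher in metastasis livers, Lgals3 and Cd68, against 6.99% of all genes. DESeq2 called 1 of the 8 higher, Lgals3, against 1.59% of the genes it tested. Lgals3 was 2.28-fold higher in metastasis livers (log2 fold change 1.19 ± 0.22, 95% interval 0.65 to 1.72, adjusted p = 0.285), and its adjusted p ranged from 0.00321 to 0.760 over the alternative analyses. Cd68 had a log2 fold change of 0.51 ± 0.20 (95% interval 0.04 to 0.99, adjusted p = 0.357). Both metastasis livers were above both PMN livers for Lgals3, Cd68 and Cd9, and 21.9% of all genes had this order.

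For the other 5 genes the livers of the tumor groups overlapped. Ly6c2 had a log2 fold change of 0.01 between metastasis and PMN livers, with a 95% interval of −2.08 to 2.1, so that a 4-fold difference in either direction lies within it. Lyz2, with a difference of 0.23, had the narrower interval of −0.50 to 0.96. The intervals of Plac8 (−0.50 to 1.46), Trem2 (−0.89 to 1.62) and Gpnmb (−0.88 to 1.33) also included 0. Cd9 had a log2 fold change of 1.54 ± 0.73 with an interval of −0.22 to 3.30, and the value was 0.66 without the first metastasis liver and 2.13 without the first PMN liver.

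The levels of the 8 genes relative to each other were compared by TPM, which the authors had computed. In sham livers the order of the mean levels was Lyz2 (62.0 ± 12.1 TPM, SD, n = 2), Cd9 (17.5 ± 14.5), Cd68 (6.68 ± 0.232), Lgals3 (4.17 ± 0.844), Plac8 (3.45 ± 0.315), Gpnmb, Ly6c2 and Trem2, the last 3 of which were under 1 TPM on average. In PMN livers the first 5 had the same order, and Ly6c2 stood above Gpnmb at 4.09 ± 3.57 against 1.69 ± 0.816 TPM, a difference within the spread of Ly6c2. In metastasis livers Cd9 had the highest mean (306 ± 186 TPM), next to Lyz2 (288 ± 78.0), and these neighbours did not differ beyond their spread. Lgals3 (42.2 ± 1.32 TPM) stood above Cd68 (27.7 ± 0.0586) there, whereas in PMN livers these genes did not differ beyond their spread (20.1 ± 2.57 and 20.9 ± 0.147).

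The summed level of the 8 genes was 76.8 and 114 TPM in sham livers, 398 and 475 in PMN livers and 754 and 612 in metastasis livers. Lyz2 and Cd9 made up most of it in every liver. The share of Cd9 was 58.1% in the first metastasis liver and 28.5% in the second, whereas the share of Lyz2 was 30.8% and 56.0%. These livers thus differed in which of both genes led, and the PMN livers differed in the share of Cd9 as well, at 37.3% and 16.7%.

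**Figure D3:**
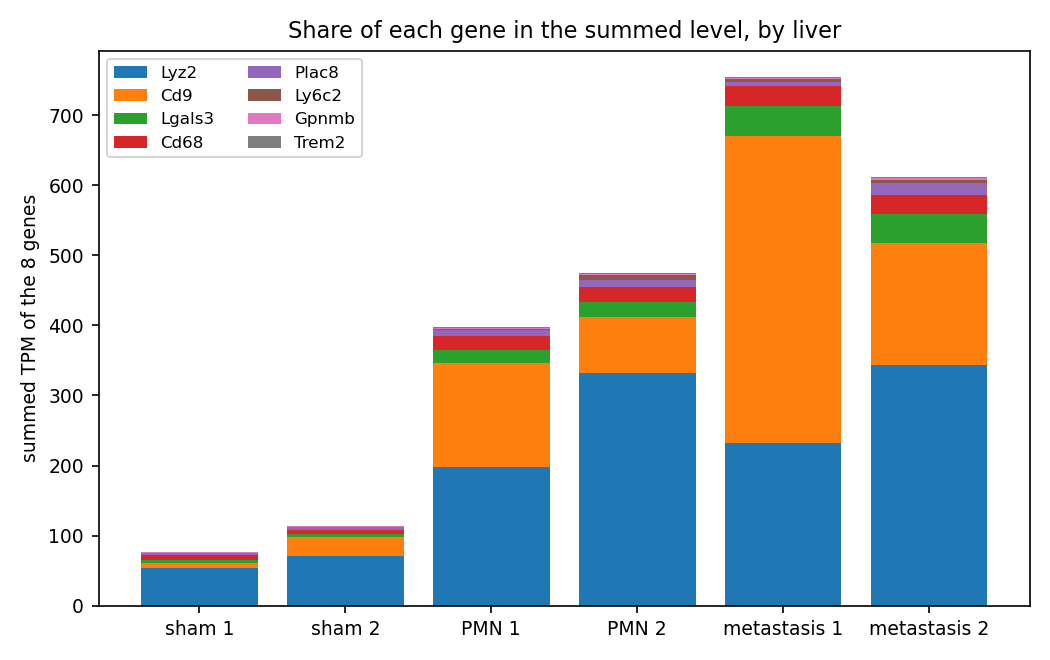
Level of each of the 8 genes (TPM, stacked) in each of the 6 livers. The sums are 76.8 and 114 in sham, 398 and 475 in PMN and 754 and 612 in metastasis livers, with the Cd9 part largest in the first metastasis liver (58.1%).

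The members were also set relative to Cd68, taken as a common phagocyte gene. The ratios of Lyz2, Plac8 and Ly6c2 to Cd68 by TPM overlapped between all groups. For Lyz2 the ratio was 7.81 and 10.8 in sham, 9.51 and 15.8 in PMN, and 8.40 and 12.4 in metastasis livers. For Cd9 it was 1.07 and 4.26 in sham, 7.15 and 3.77 in PMN, and 15.8 and 6.33 in metastasis livers, where PMN overlapped with both other groups. The ratio of Lgals3 to Cd68 by TPM was 0.697 and 0.549 in sham, 0.879 and 1.04 in PMN, and 1.56 and 1.50 in metastasis livers, with no overlap between groups. The ratio of Trem2 to Cd68 was 0.0424 and 0.0204 in sham, 0.0541 and 0.0905 in PMN, and 0.0504 and 0.0800 in metastasis livers, where the tumor groups overlapped. For Gpnmb the ratio was 0.109 and 0.179 in sham, 0.109 and 0.0530 in PMN, and 0.0691 and 0.0647 in metastasis livers. Gpnmb per Cd68 was thus highest in a sham liver, and these ratios were not tested.

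The genes whose pattern was most like that of each member were found by Pearson's r of log2 CPM over the 6 livers among 12672 genes. The 6 points share their libraries and fall into the 3 groups, so that r mostly reflects the step from sham to tumor-bearing livers, and no test was made. Lyz2 was closest to Ppbp, a chemokine gene of platelets (r = 0.999), and Birc3 (0.997). Lgals3 was closest to Rab31 (0.997) and Lsp1 (0.996), and Trem2 to Adap1 (0.996) and Msr1 (0.996), the last of which encodes a macrophage scavenger receptor. Cd68 was closest to Cxcl14 and Maf (0.996), Plac8 to Wls among others, and Cd9 to Gm19619 (0.996) and Rad18 (0.995). Ly6c2 with Il16 (0.986) and Ddhd1 (0.983), and Gpnmb with B3galt6 (0.994) and Pbrm1 (0.992), had fewer close genes. The number of genes with r over 0.95 was 41 for Ly6c2 and 21 for Gpnmb, against 148 to 419 for the other 6. Among the members themselves, r ran from 0.640 for Ly6c2 with Gpnmb to 0.990 for Lgals3 with Cd68.

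A set of 7 lists of related genes, 102 genes in all of which 93 were tested, were set beside the members. In PMN livers 22 of the 93 rose (23.7%) and 1 fell, against 4.92% and 2.38% of all genes tested, with a median log2 fold change of 0.86. In metastasis livers 24 rose (25.8%, against 6.78% of all genes) and none fell (3.95% of all genes) by edgeR, with a median of 1.47. DESeq2 called 47 higher and 3 lower there. Without TMM 22 rose and 3 fell. With limma 19 rose and 4 fell on log2(TPM + 1), and 22 rose and 4 fell on log2(TPM + 0.1). Between metastasis and PMN livers none of them passed edgeR's test, and DESeq2 called 2 of them, both higher. Without the second metastasis liver, 9 were higher and 12 lower in the metastasis liver that was left. Without either sham liver, none of the related genes passed against sham, and without either PMN liver, 2 passed in PMN. The count in PMN was 47 and 49 without the first and the second metastasis liver. In metastasis it was 16 and 15 without the first and the second PMN liver and 44 and 36 without the first and the second metastasis liver. Some genes, such as Tyrobp and Cd63, belong to several lists and are counted in each below.

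Of 18 tested monocyte genes other than the members, 8 rose in PMN livers and 8 in metastasis livers (4.92% and 6.78% of all genes tested did), with medians of 2.63 and 3.65. Chil3, F13a1, Itgam, Vcan, Ifitm6, Csf1r and Irf8 were among the called genes in both comparisons. F13a1, a clotting factor subunit made by monocytes, was at 0.0985 and 0.136 CPM in sham, 3.54 and 8.97 in PMN, and 4.02 and 5.50 in metastasis livers (log2 fold changes 5.69 ± 0.64 and 5.30 ± 0.63). Vcan, which encodes the proteoglycan versican, was at 0.148 and 0.136 CPM in sham, 3.36 and 6.19 in PMN, and 0.904 and 4.05 in metastasis livers. Both genes were near the counting limit in sham livers. Chil3, a chitinase-like gene of monocytes, macrophages and early neutrophils, had 2 and 0 counts in sham livers and was at 7.74 and 18.9 CPM in PMN and 58.6 and 10.5 CPM in metastasis livers. Ifitm6, an interferon-induced transmembrane gene of myeloid cells, was at 0.296 and 0.181 CPM in sham, 3.79 and 6.81 in PMN, and 20.4 and 6.94 in metastasis livers (5.83 ± 0.72 in metastasis). Itgam encodes CD11b, which neutrophils share with monocytes, and rose by 5.05 ± 0.46 and 5.46 ± 0.46 on the log2 scale. Ccr2, the chemokine receptor by which monocytes leave the bone marrow, did not pass (adjusted p = 0.0824 in PMN and 0.0571 in metastasis), with 1.36 and 1.29 CPM in sham, 5.78 and 11.7 in PMN, and 3.56 and 17.2 in metastasis livers.

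Of 20 lipid-associated macrophage genes other than the members, 2 rose in PMN livers and 4 in metastasis livers (4.92% and 6.78% of all genes tested did), with medians of 0.61 and 0.32. None fell, although 7 of the 20 had a negative log2 fold change in each comparison. DESeq2 called 5 and 8 of the 20 higher, against 10.4% and 12.6% of all genes by that tool, and 1 and 2 lower. The summed level of the list was lower in tumor-bearing livers, at 16078 and 14863 TPM in sham, 9329 and 9345 in PMN, and 9184 and 10052 in metastasis livers, most of it from a single abundant gene that did not pass. The other 19 genes summed to higher levels in tumor-bearing livers, at 1748 and 1877 TPM in sham, 2546 and 2530 in PMN, and 3023 and 2399 in metastasis livers. Cd63, a lysosomal tetraspanin, was at 3.94 and 4.39 CPM in sham, 12.6 and 10.5 in PMN, and 41.0 and 40.5 in metastasis livers (log2 fold changes 1.47 ± 0.20 and 3.29 ± 0.21). Fabp4, a fatty acid binding protein of adipocytes, endothelium and macrophages, rose in metastasis livers (4.34 ± 0.75, adjusted p = 0.0214), with 4.71 and 3.85 CPM in sham, 14.2 and 14.1 in PMN, and 145 and 28.6 in metastasis livers. The first metastasis liver was the high one. Mmp12, a macrophage elastase gene, also rose in metastasis livers (3.39 ± 0.73, adjusted p = 0.0367). It failed at least 1 condition of the naming rule given below, a mean of 1 CPM or livers that did not overlap. Spp1, the osteopontin gene, was at 13.7 and 16.7 CPM in sham, 63.1 and 96.2 in PMN, and 19.6 and 180 in metastasis livers, and did not pass in either comparison. Fabp5 and Lpl, a lipid carrier and a lipase, likewise had metastasis livers far apart (28.6 and 204 CPM, and 474 and 91.2 CPM) and did not pass.

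TREM2 signals through the adaptor TYROBP and the kinase SYK. Of 11 tested genes of this signaling path and the TREM family, 5 rose in PMN livers and 6 in metastasis livers, with medians of 2.01 and 2.67. The shares of all genes tested that rose were 4.92% and 6.78%. Tyrobp was at 3.82 and 3.10 CPM in sham, 12.6 and 13 in PMN, and 15.3 and 22.4 in metastasis livers, and rose by 1.89 ± 0.27 (adjusted p = 0.0176) and 2.45 ± 0.28 (adjusted p = 0.00782) on the log2 scale. TYROBP serves many receptors of myeloid and NK cells beside TREM2. Syk was at 4.09 and 4.64 CPM in sham, 16.1 and 19.2 in PMN, and 16.3 and 17.1 in metastasis livers (2.01 ± 0.22 and 1.93 ± 0.22). Plcg2, the phospholipase downstream of SYK, and Inpp5d, the phosphatase SHIP1 that opposes it, also rose in both comparisons, by 2.86 ± 0.42 and 1.77 ± 0.32 in PMN livers and by 2.95 ± 0.42 and 2.08 ± 0.32 in metastasis livers. Treml2 had 6 and 0 counts in sham livers and was at 2.04 to 3.82 CPM in the tumor-bearing livers.

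Of 23 lysosome genes, 3 rose in PMN livers, Ctss and Tfe3 among them, and 2 in metastasis livers, Ctss among them, with medians of 0.43 and 0.23. Against 4.92% and 6.78% of all genes tested, the metastasis count is near the background. Ctss, the cathepsin of antigen-presenting cells, was at 14.5 and 13.2 CPM in sham, 90.5 and 97.1 in PMN, and 74.8 and 121 in metastasis livers (2.76 ± 0.28 and 2.82 ± 0.28). Tfe3, a transcription factor of lysosomal genes, moved less, by 1.28 ± 0.24 in PMN livers.

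The families of Lgals3, Cd9 and Ly6c2 were also followed. None of 7 galectin genes other than Lgals3 passed edgeR's test in either comparison (medians −0.07 and 0.28), where 4.92% and 6.78% of all genes tested rose. DESeq2 called 1 of them higher and 1 lower in metastasis livers and none in PMN livers. Lgals1 was at 2.44 to 7.03 CPM in 5 livers and at 64.7 CPM in the second metastasis liver. Among 11 tetraspanins other than Cd9, Cd53, a leukocyte tetraspanin, rose in both comparisons (2.12 ± 0.22 and 2.33 ± 0.22) together with Cd63. Cd82 fell by 1.12 on the log2 scale in PMN livers (SE 0.22, adjusted p = 0.0370). Of 6 tested LY6 family genes other than Ly6c2, 4 rose in both comparisons, where 4.92% and 6.78% of all genes tested rose. They included Ly6g, the neutrophil marker, at 0.0739 and 0.0905 CPM in sham, 1.22 and 3.22 in PMN, and 6.04 and 2.28 in metastasis livers. Ly6d, a lymphoid and epithelial family member, rose by 6.04 ± 1.33 and 6.05 ± 1.33 from 2 and 25 counts in sham livers, and Ly6k was at 0 in both sham livers.

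**Figure D4:**
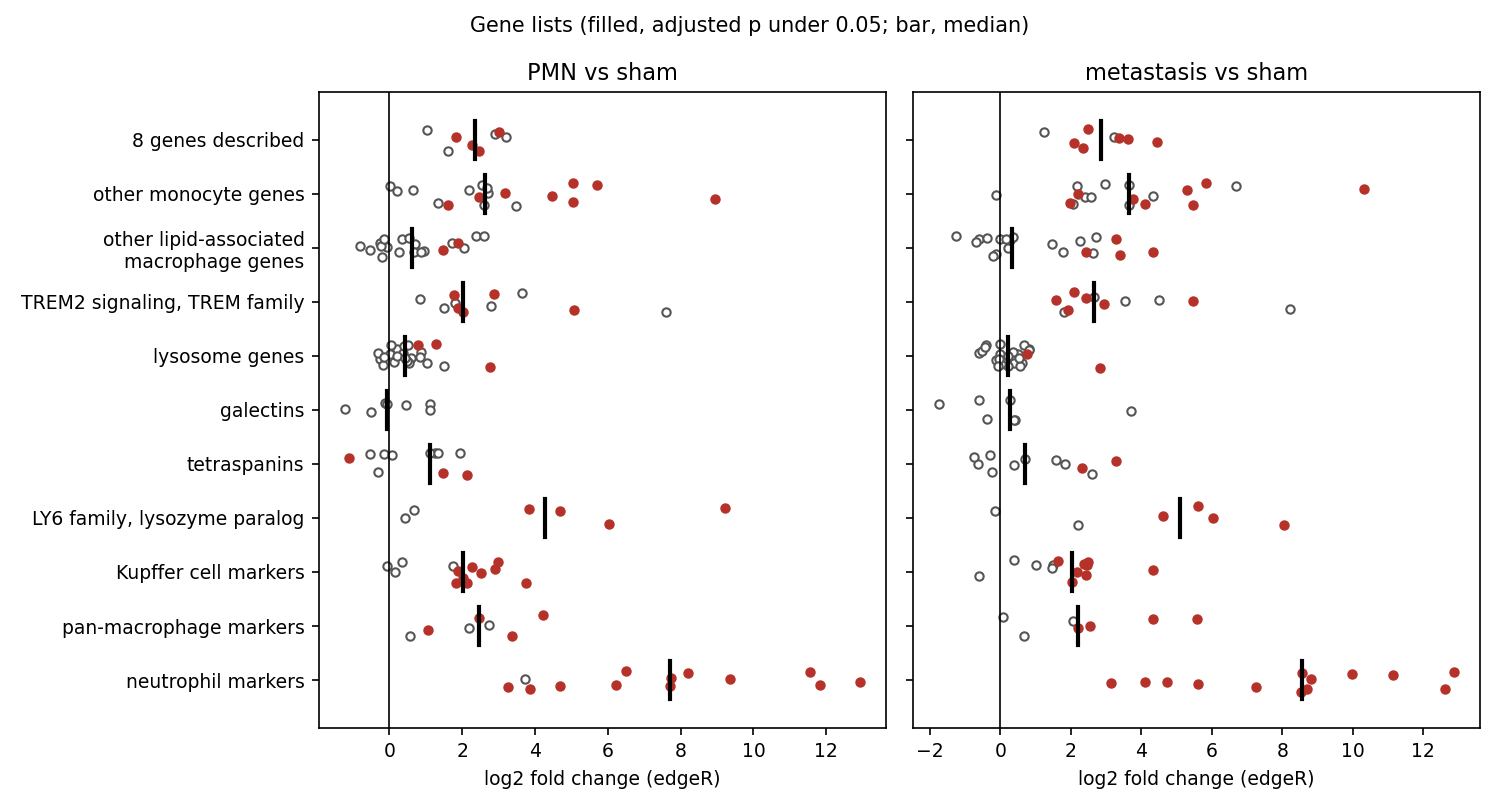
Log2 fold change (edgeR) of every tested gene of the 8 described, of the 7 related lists and of 3 marker lists, in PMN (left) and metastasis (right) against sham livers, where filled points passed an adjusted p under 0.05 and bars are list medians. The neutrophil markers have the highest medians (7.70 and 8.56), and the galectin medians (−0.07 and 0.28) are near 0, with single galectin genes from −1.74 to 3.70 in metastasis.

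Markers of other cells moved with the members. Of 13 neutrophil markers, 12 rose in PMN livers and 13 in metastasis livers, against 4.92% and 6.78% of all genes tested. Their summed level was 10.3 to 14.8 TPM in sham, 905 to 2023 in PMN and 1387 to 3263 in metastasis livers, Camp, Mpo and Elane were at 0 in both sham livers, and S100a9 was the most abundant of them. Neutrophils also carry Lyz2, Plac8, Cd9, Lgals3 and low levels of LY6C, and the part of these markers in the members' differences was not tested.

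Of 13 Kupffer cell markers, 9 rose in PMN livers and 8 in metastasis livers (4.92% and 6.78% of all genes tested did), with medians of 2.01 and 2.03 and none at 0 in both sham livers. Their summed level was 502 and 520 TPM in sham, 1345 and 1689 in PMN, and 1067 and 1648 in metastasis livers. Clec4f, which marks resident cells, was at 76.8 CPM in both sham livers, 265 and 355 in PMN, and 163 and 318 in metastasis livers. Of 7 pan-macrophage markers, 4 rose in each comparison, against the same shares of all genes. Adgre1, which encodes F4/80, was at 2.51 and 3.80 CPM in sham, 29.3 and 35.9 in PMN, and 7.90 and 29.0 in metastasis livers (3.37 ± 0.62, adjusted p = 0.0317, and 2.54 ± 0.60, adjusted p = 0.0466). In the first metastasis liver the ratio of Adgre1 to Cd68 by TPM was 0.151, below the 0.247 and 0.391 of the sham livers, whereas the second had 0.593 and the PMN livers 0.804 and 1.04. Genes of resident macrophages thus rose along with those of monocytes, and the part of each cell type in the members' differences was not tested.

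Of 5 platelet markers, 3 rose in PMN and 4 in metastasis livers (3.26 and 3.34 summed TPM in sham, 13.1 and 30.4 in PMN, and 31.6 and 34.8 in metastasis livers), with Gp1bb at 0 in both sham livers. Of 7 cholangiocyte and epithelial markers, none rose in PMN livers and 2 in metastasis livers, Sox9 and Krt18. Their summed level was 340 TPM at most in sham and PMN livers and 625 and 421 TPM in metastasis livers, where the first liver, which had the highest Cd9, was also the higher. Krt18 was the most abundant of them, at 117 and 160 TPM in sham, 158 and 138 in PMN, and 291 and 227 in metastasis livers. Sham mice received no tumor cells, so the sum is not a measure of tumor cells alone. Krt20 was at 0 in both sham livers. The part of platelets, bile ducts or tumor cells in the Cd9 difference was not tested. Endothelial markers rose for 4 and 3 of 7 genes, and stellate cell markers for 0 and 2 of 8. All these marker counts stand against 4.92% of all genes tested in PMN and 6.78% in metastasis livers. No marker of dendritic cells, T and NK cells or B cells passed edgeR's test in either comparison. DESeq2 called 1 dendritic cell marker higher in each comparison and 1 T and NK cell marker higher in metastasis livers. By that tool 10.4% and 12.6% of all genes rose.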

How the data were processed

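The authors aligned reads of polyadenylated RNA to mm10 with HISAT2 2.1.0 and counted uniquely mapped reads on exons with featureCounts of Subread 2.0.6. The annotation and the use of strand are not given in the sources used here. They deposited raw counts per gene and liver, without normalization, and TPM values, which divide the counts by gene length and by library total. CPM and all tests were computed here from the raw counts, and levels of different genes were compared with the deposited TPM values.

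The 8 genes, the related lists, the markers and the rule for naming genes were chosen with earlier results of these data known. From each related list, up to 4 called genes with the largest absolute log2 fold change were named in each comparison, if their mean was 1 CPM or more and the livers compared did not overlap, and paralogs, Tyrobp and Adgre1 were named always. Others, such as Ccr2, Spp1, Fabp5, Lpl, Lgals1, Mmp12 and Clec4f, were named after their values were seen.

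Groups were tested with the two-sided quasi-likelihood test of edgeR 4.0.16 (R 4.3.3) with TMM normalization, filterByExpr (count minimum 10), 1 fit over the 6 livers and Benjamini-Hochberg adjustment over 16370 genes, at a threshold of 0.05. CPM values are scaled by TMM. Log2 CPM used a prior count of 2. With 2 livers per group, no permutation of labels can reach p = 0.05. P-values measure the spread between these livers. Alternatives were DESeq2 1.42.0, other filters and scalings, only the groups compared, a replicate block, limma 3.58.1 on log2(TPM + 1) and log2(TPM + 0.1), and each liver left out. Coordinates and promoters are from RefSeq GRCm38.p6, where all 8 genes matched by symbol, and overlaps and transcripts from GENCODE. Motifs and transcript identity were computed with Python 3.11.15 and Biopython 1.88. Protein sequences were not used here. Some genes that the naming rule covers are not reported here.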

Additional observations from a re-analysis of the deposited data

How the results depend on the processing

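In PMN against sham livers, 4 of the 8 genes rose, 7 with DESeq2 (10.4% of all genes) and 6 with only the 2 groups fitted (16.3% of all genes). The count ranged from 0 to 7 when each liver was left out, with 0 without either sham liver (0% of all genes) or either PMN liver (0.352% and 0.323%) and 7 without either metastasis liver (14.5% and 14.4%), where the lone sample of a pair was assumed to vary like the other groups. Of the related lists 22 genes rose, 35 with DESeq2, 13 with at least 10 counts in every liver, 46 with only the 2 groups fitted, and 0 to 49 with a liver left out. In metastasis against sham livers, 6 of the 8 rose, 3 with only the 2 groups fitted (1.75% of all genes), and 0 to 6 with a liver left out (0 without either sham liver, 3 without either PMN liver, at 2.13% and 1.97% of all genes, and 6 without either metastasis liver, at 9.58% and 17.3%). Of the related lists 24 rose, 47 with DESeq2, 14 with at least 10 counts in every liver, 14 with only the 2 groups fitted, and 0 to 44 with a liver left out. Between metastasis and PMN livers none of the 8 was called, 1 with DESeq2 and 0 to 1 with a liver left out (Lgals3 without the second metastasis liver, adjusted p = 0.0101, with 7.53% of all genes higher). Of the related lists none was called, 2 rose with DESeq2 and 0 to 9 with a liver left out (3 without the first metastasis liver, and 9, with 12 that fell, without the second). The cause of these shifts was not tested. Without either sham liver, no gene tested was called higher or lower than sham.

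The minimum of 10 counts in every liver removed Ly6c2 and Trem2. Library size without TMM shifted the median of all genes by −0.26 in PMN and −0.27 in metastasis livers, and took the share of higher genes among all calls from 67.4% to 41.5% and from 63.2% to 42.9%. The 8 genes stayed higher than sham under it, but Plac8 lost its call in metastasis livers (adjusted p = 0.0529). The Ly6c2 difference between metastasis and PMN livers became −0.026 under this scaling. With each liver left out, that difference ran from −0.67 to 1.3 for Ly6c2, from −0.062 to 0.58 for Lyz2, from −0.29 to 0.98 for Plac8 and from −0.24 to 0.89 for Gpnmb.

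Replicate numbers did not pair the livers. The correlations of deviations between same-numbered livers were 0.0428, −0.0320 and 0.0827. With the replicate number as a block, 4 of the 8 genes were called in PMN livers (Plac8 at an adjusted p of 0.0463, Trem2 not at 0.0586), with 4.11% of all genes higher, and 7 in metastasis livers, with 5.83%, where Ly6c2 was added (adjusted p = 0.0396), and 24 related genes in metastasis livers.

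Depth limited Ly6c2 and Trem2 most, with 2 to 16 counts in the sham livers.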
